A study of Mus musculus with 14 samples.

Results

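Genes that mark the epithelium of the pancreatic ducts were followed in isolated mouse islets. The set was named as Krt7, Krt8, Krt19, Muc1, Tspan8, Prom1, Epcam, Cftr and Spp1, and the row of each gene was taken from the array table by its gene annotation. Of the 9 genes, 8 had a row among the 19938 genes tested, each with a single transcript cluster, the array's unit for a gene. The expression of Spp1 was not analysed here.

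RNA came from islets of 11-week-old mice of C57BL/6 and NMRI (1:1) background, untreated before isolation, and was hybridised to Affymetrix Mouse Gene 1.0 ST arrays. The control group had 5 arrays, and no allele is given for it in the labels. The Pdx-1+/- group had 4 arrays, and its mice carried the Pdx-1-tTA driver allele, which per the labels makes them haploinsufficient for Pdx-1. The IKK2-CA group had 5 arrays from diabetic mice, labelled IKK2-CApdx-1, in which that driver switched on constitutively active IKK2 in β-cells. IKK2-CA islets therefore differed from control islets by the driver, active IKK2 and diabetes together, and these cannot be told apart in that comparison. Against Pdx-1+/- islets they differed by active IKK2 and diabetes. Whether each array is a separate mouse is not given, so the p-values measure the spread between arrays, which may be technical.

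The pancreatic ducts are tubes of epithelial cells that collect the enzymes of the acinar cells, add a bicarbonate-rich fluid and carry it to the gut. Duct cells hold keratin filaments, carry mucins and adhesion proteins on their surface and move chloride through the channel Cftr. They share their embryonic origin in the Pdx1-expressing pancreatic bud with acinar and islet cells. Duct cells lie outside the islet, and several of the genes are also read in other epithelia, so a signal in isolated islets does not name its cell of origin.

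Of the 8 genes, Tspan8 alone passed the test, being 1.45-fold higher in IKK2-CA than in control islets. Tspan8 and Prom1 were higher on every Pdx-1+/- array than on any control array, without passing the adjusted test. No gene passed between IKK2-CA and Pdx-1+/- islets. The genes did not move as a block: across the 14 arrays, the pairs among them correlated positively as often as negatively.

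Genes of other tissues were strong on some arrays. Transcripts of acinar cells were high on every array: Cpa1, a digestive carboxypeptidase, read between 13.62 and 13.70 log2 units on the 14 arrays. The mean of 14 acinar genes was 12.16 ± 0.16 (SD, n = 5) in control, 12.28 ± 0.23 (SD, n = 4) in Pdx-1+/- and 12.20 ± 0.30 (SD, n = 5) in IKK2-CA islets, with overlapping ranges. The mean of 10 islet endocrine genes was 12.20 ± 0.19 (SD, n = 5), 11.90 ± 0.23 (SD, n = 4) and 11.73 ± 0.20 (SD, n = 5) in the same order. On Pdx-1+/- array 4, the mean of 17 intestinal epithelium genes was 8.10, against 4.82 to 6.60 on the other 13 arrays, where 6.60 was control array 3; Sis, a brush border disaccharidase, read 9.16 there against 3.18 to 6.05 elsewhere. The mean of 7 mesothelial genes on Pdx-1+/- array 4 was 6.42, against 8.28 to 9.67 elsewhere. On IKK2-CA array 5, the mean of 8 adipocyte genes was 9.14, against 6.10 to 7.46 elsewhere, and Adipoq, which encodes adiponectin, read 10.60 against 5.13 to 7.38. Where leaving out these arrays made or ended a call, the result is given with and without them. In such bulk RNA, a change in the number of duct cells and a change in RNA per duct cell cannot be told apart.

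Tspan8 and Prom1 are shown first, with stretches of their promoters, because they were the genes of the 8 whose Pdx-1+/- arrays did not overlap with control. Pdx-1 is a homeodomain protein, and many homeodomain proteins bind sites built around the letters TAAT. The 4 stretches are those before the start of transcription in the RefSeq windows that hold this motif, which was sought on both strands. Each is 30 bases, written 5′ to 3′ along the gene's strand from the mouse build GRCm38.p6, with the match in capitals; ATTA is the motif read on the opposite strand.
Tspan8, chr10:115817056-115817085, plus strand, match at -215: tgtgctcctatcaATTAaaaaaaggggggg
Prom1, chr5:44101957-44101986, minus strand, match at -248: aaATTAccgagccttgtggagaccccggca
Prom1, chr5:44094840-44094869, minus strand, match at -88: aggcctaagtgttTAATtctaagccatgtc
Prom1, chr5:44094780-44094809, minus strand, match at -28: ggttgtctctgagTAATcagtgttctttct
Distances count bases from the annotated start, and the Prom1 stretches belong to windows of different starts. The motif is common: 58.0% of 32851 RefSeq windows of 300 bases (250 before the start and 50 after it) held it. Krt19 had no window among those used and was not searched. Of the other 8 named genes, Tspan8, Prom1 and Spp1 held the motif, while no match lay in the windows of Krt7, Krt8, Muc1, Epcam and Cftr. A match is a description of the letters and was not tested as a binding site.

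Tspan8 encodes a tetraspanin, a membrane protein that gathers integrins and other partners into patches on epithelial cells. On control arrays 1 to 5 Tspan8 read 6.34, 6.39, 6.31, 6.35 and 6.27 log2 units. On Pdx-1+/- arrays 1 to 4 it read 7.01, 7.40, 7.02 and 6.67. On IKK2-CA arrays 1 to 5 it read 6.88, 6.63, 6.64, 7.01 and 7.19. The control values lay in a band of 0.12 log2 units, and all 9 arrays with the driver allele lay above it. The order of the means was control, IKK2-CA and Pdx-1+/-, and the ranges of the last 2 groups overlapped.

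In IKK2-CA against control, Tspan8 rose by 0.54 log2 units (SE 0.13, 95% interval 0.26 to 0.81, limma adjusted p = 0.0442). Adjusted p-values here follow Benjamini-Hochberg, taken over the 19938 genes, and count as passing under 0.05. In Pdx-1+/- against control, the Tspan8 difference was 0.69 log2 units (SE 0.14, 95% interval 0.40 to 0.99, limma adjusted p = 0.0957), a 1.62-fold higher mean. This larger difference had an unadjusted p of 0.000154 in limma and ranked 32 of all genes. Both comparisons use the same control arrays. Between IKK2-CA and Pdx-1+/- islets the Tspan8 difference was -0.16 (SE 0.14, 95% interval -0.45 to 0.14, limma adjusted p = 0.923), and -0.27 without Pdx-1+/- array 4. A two-sided exact permutation test gave p = 0.00794 for Tspan8 in each comparison with control, the smallest that 252 and 126 regroupings of the arrays allow.

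The Tspan8 call in IKK2-CA against control lay close to the threshold. It was lost when any control array or any of Pdx-1+/- arrays 1 and 3 and IKK2-CA arrays 1, 3, 4 and 5 was left out, with a limma adjusted p of up to 0.126, while the difference stayed between 0.46 and 0.60. It was also lost when every transcript cluster was tested (limma adjusted p = 0.0766). Tspan8 was lowest of its group on Pdx-1+/- array 4, where the intestinal genes were highest. Without that array, the Pdx-1+/- difference from control was 0.81 and passed the test (limma adjusted p = 0.0371). With Pdx-1+/- array 4 and also IKK2-CA array 5 left out, Tspan8 passed in both comparisons with control, by 0.81 (limma adjusted p = 0.0112) and by 0.46 (limma adjusted p = 0.0353). Without control array 3 as well, the IKK2-CA difference was 0.45 and did not pass (limma adjusted p = 0.0938).

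**Figure D1:**
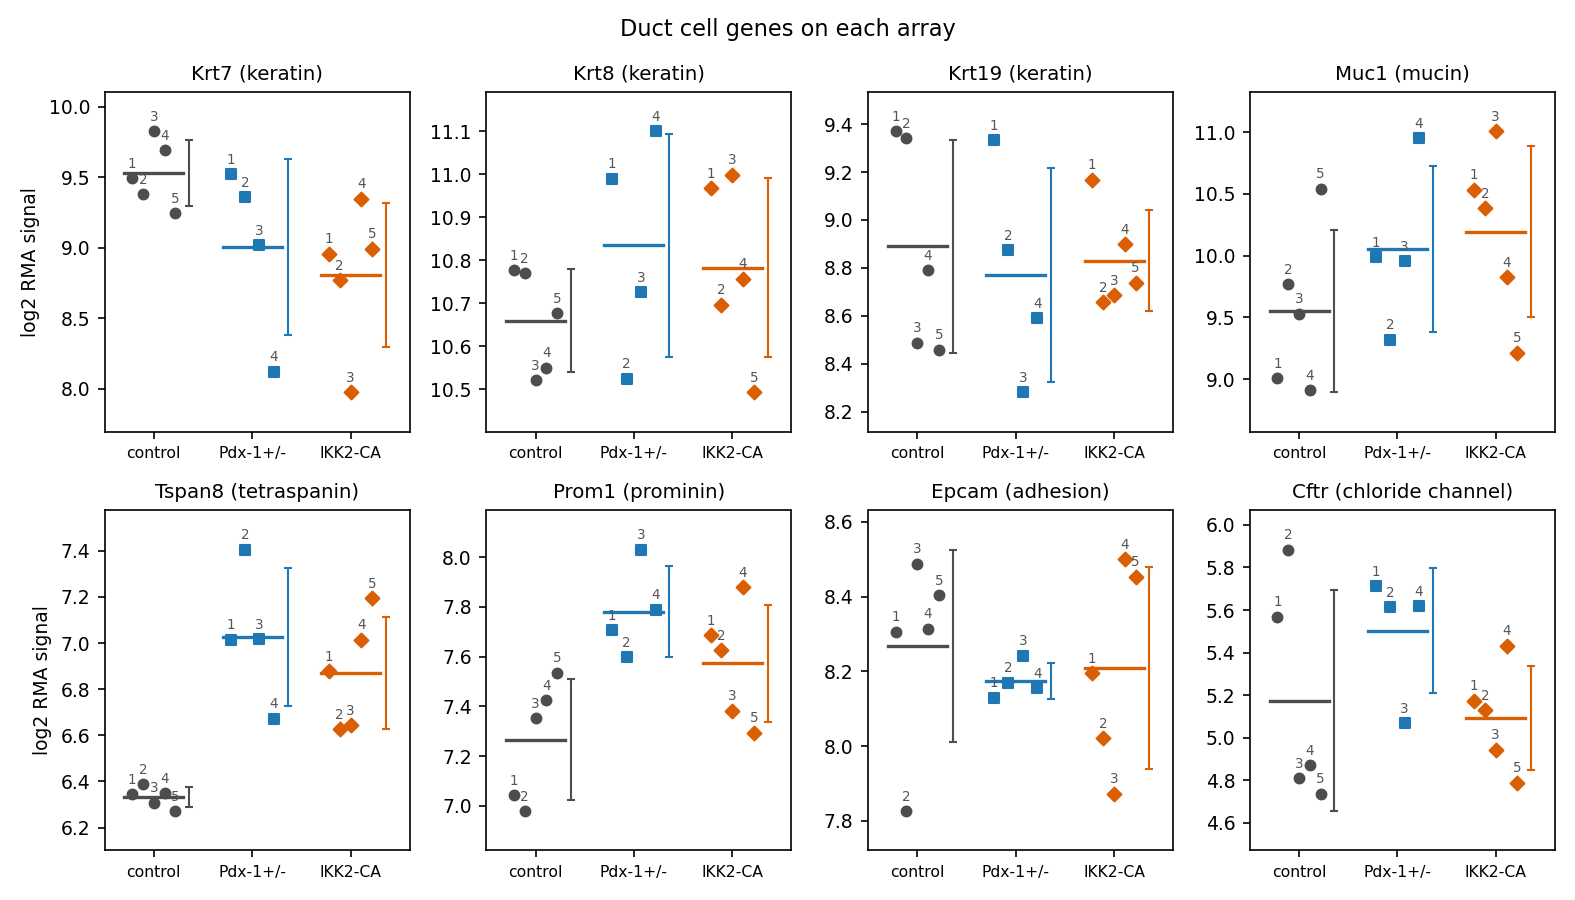
Signal of the 8 duct genes on every array, in log2 RMA units on the vertical axis of each panel (scales differ), by group; numbered points are arrays, horizontal bars are group means, and the vertical bars beside the points span the mean ± SD. The control points of Tspan8, between 6.27 and 6.39, lie below all points of the other groups, while most other genes overlap between groups.

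Prom1 encodes prominin 1 (CD133), a protein of membrane protrusions that is found on the luminal side of duct cells. It read 7.04, 6.98, 7.35, 7.42 and 7.53 on control arrays 1 to 5. On Pdx-1+/- arrays 1 to 4 it read 7.71, 7.60, 8.03 and 7.79. On IKK2-CA arrays 1 to 5 it read 7.69, 7.63, 7.38, 7.88 and 7.29. Every Pdx-1+/- array lay above every control array, and 3 of the 5 IKK2-CA arrays did.

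The Prom1 difference from control was 0.51 in Pdx-1+/- islets (SE 0.14, 95% interval 0.21 to 0.82, limma adjusted p = 0.424). It was 0.31 in IKK2-CA islets (SE 0.13, 95% interval 0.02 to 0.59, limma adjusted p = 0.277). Neither passed the test over all genes, although both intervals lay above 0. Between IKK2-CA and Pdx-1+/- islets Prom1 differed by -0.21 (SE 0.14, 95% interval -0.51 to 0.10). The exact permutation test, two-sided, gave p = 0.0159 for Prom1 in Pdx-1+/- against control, and the difference was 0.51 without Pdx-1+/- array 4.

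Muc1 encodes a transmembrane mucin that coats the luminal surface of ducts, acini and other glands. Control arrays 1 to 5 read 9.01, 9.77, 9.53, 8.91 and 10.54. Pdx-1+/- arrays 1 to 4 read 9.99, 9.32, 9.96 and 10.95. IKK2-CA arrays 1 to 5 read 10.53, 10.38, 11.01, 9.83 and 9.21. Muc1 spread more within groups than any other of the 8 genes, with a within-group SD of 0.67, above that of 98.9% of all genes. Its mean was 9.55 in control, 10.05 in Pdx-1+/- and 10.19 in IKK2-CA islets, and neighbours in that order did not differ beyond the spread of the arrays. The IKK2-CA difference from control was 0.64 (SE 0.38, 95% interval -0.16 to 1.45, limma adjusted p = 0.459). Over single arrays left out it lay between 0.44 and 0.89, and it was 0.89 without IKK2-CA array 5. The Pdx-1+/- difference from control was 0.50 with all arrays and 0.20 without Pdx-1+/- array 4.

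Epcam encodes the epithelial cell adhesion molecule, which sits on the sides of most simple epithelial cells. Its control arrays 1 to 5 read 8.31, 7.83, 8.49, 8.31 and 8.40. Its Pdx-1+/- arrays 1 to 4 lay in a narrow band at 8.13, 8.17, 8.24 and 8.15. Its IKK2-CA arrays 1 to 5 read 8.20, 8.02, 7.87, 8.50 and 8.45. Epcam overlapped in all 3 groups, with means of 8.27, 8.17 and 8.21. The IKK2-CA difference from control was -0.06 (95% interval -0.35 to 0.23), and that of Pdx-1+/- was -0.09 (95% interval -0.40 to 0.21).

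The keratins form the intermediate filaments that brace epithelial cells. Krt7, a keratin of ducts and other simple epithelia, had the largest difference of the 3. It read 9.49, 9.38, 9.83, 9.69 and 9.24 on control arrays 1 to 5. On Pdx-1+/- arrays 1 to 4 it read 9.52, 9.36, 9.02 and 8.12. On IKK2-CA arrays 1 to 5 it read 8.96, 8.77, 7.97, 9.35 and 8.99. Thus 4 of 5 IKK2-CA arrays lay below every control array, and IKK2-CA array 4 lay within the control range. The IKK2-CA difference from control was -0.72 (SE 0.26, 95% interval -1.28 to -0.15), which did not pass over all genes (limma adjusted p = 0.184). The exact permutation test of Krt7 alone gave a two-sided p = 0.0159. The difference passed only in the fit with array weights (-0.69, limma adjusted p = 0.0479).

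Between Pdx-1+/- and control islets the Krt7 difference was -0.52 (SE 0.28, 95% interval -1.12 to 0.08, limma adjusted p = 0.999). Pdx-1+/- array 4 was the lowest of its group, and without it the difference was -0.23. The order of the Krt7 means was control 9.53, Pdx-1+/- 9.01 and IKK2-CA 8.81. The 2 groups with the driver differed by -0.20 (95% interval -0.80 to 0.40), or by -0.49 without Pdx-1+/- array 4, and their arrays overlapped.

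Krt8 pairs with Krt18 in duct and acinar cells. Its control arrays 1 to 5 read 10.78, 10.77, 10.52, 10.55 and 10.68. Its Pdx-1+/- arrays 1 to 4 read 10.99, 10.52, 10.72 and 11.10, and its IKK2-CA arrays 1 to 5 read 10.97, 10.70, 11.00, 10.76 and 10.49. All 3 groups overlapped, and the arrays spanned 0.61 log2 units in all. The difference from control was 0.12 in IKK2-CA (95% interval -0.13 to 0.38) and 0.18 in Pdx-1+/- islets (95% interval -0.10 to 0.45). Krt8 was highest on Pdx-1+/- array 4, and without that array the Pdx-1+/- difference was 0.088. The IKK2-CA difference was 0.20 without IKK2-CA array 5 and 0.069 without IKK2-CA array 3.

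Krt19 is the keratin most used to mark duct cells in the pancreas. Control arrays 1 to 5 read 9.37, 9.34, 8.49, 8.79 and 8.46. Pdx-1+/- arrays 1 to 4 read 9.33, 8.87, 8.28 and 8.59. IKK2-CA arrays 1 to 5 read 9.17, 8.66, 8.68, 8.90 and 8.74. High and low arrays of Krt19 occurred in the control and Pdx-1+/- groups alike. The difference from control was -0.06 in IKK2-CA islets (SE 0.21, 95% interval -0.52 to 0.40) and -0.12 in Pdx-1+/- islets (SE 0.23, 95% interval -0.61 to 0.37).

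Cftr encodes the chloride channel through which duct cells drive bicarbonate and fluid into the lumen. It read 5.57, 5.88, 4.81, 4.87 and 4.74 on control arrays 1 to 5. On Pdx-1+/- arrays 1 to 4 it read 5.71, 5.61, 5.07 and 5.62, and on IKK2-CA arrays 1 to 5 it read 5.17, 5.13, 4.94, 5.43 and 4.79. Cftr lay among the lowest 30% of all genes by mean signal, and its control arrays 1 and 2 lay above the other control arrays. The mean was highest in Pdx-1+/- islets at 5.50, against 5.17 in control and 5.09 in IKK2-CA islets. Its largest difference was -0.41 in IKK2-CA against Pdx-1+/- islets (SE 0.23, 95% interval -0.89 to 0.08, limma adjusted p = 0.815), and neighbours in the order did not differ beyond their spread.

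**Figure D2:**
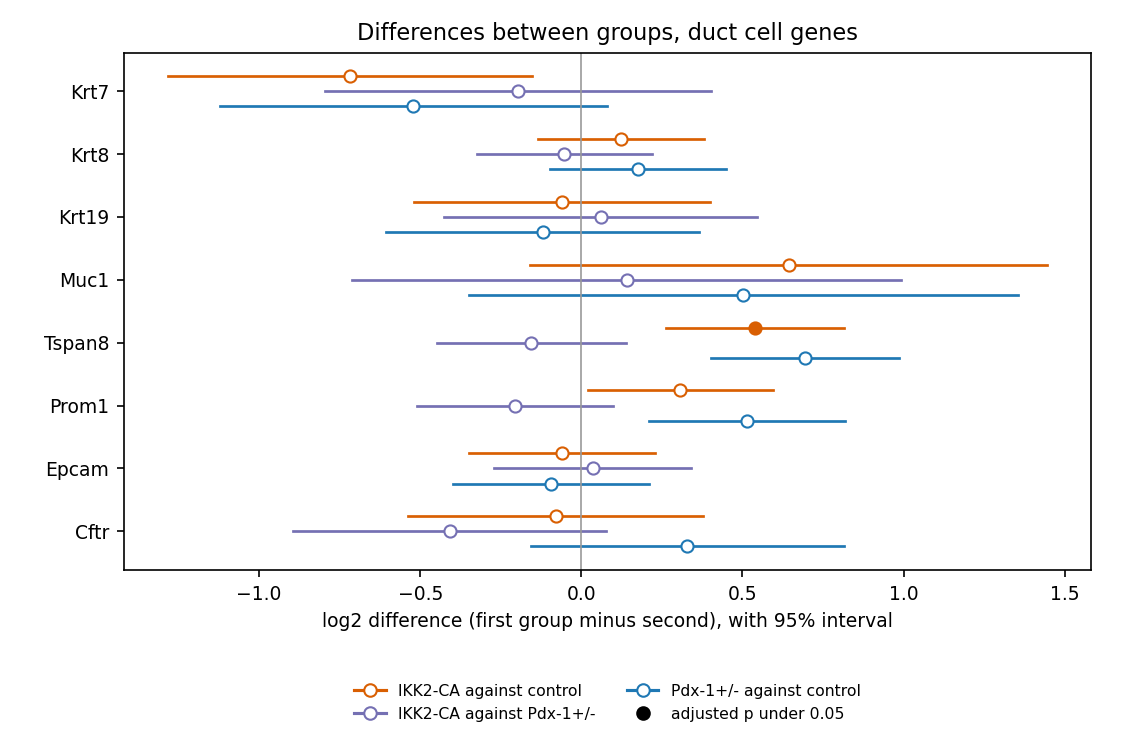
Log2 differences of the 8 duct genes (horizontal axis) in the 3 comparisons, with points for the estimate (filled where the adjusted p is under 0.05) and lines for the 95% interval of the limma fit. The interval of Tspan8 lies above 0 in both comparisons with control, and all 8 intervals cross 0 in IKK2-CA against Pdx-1+/-.

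The counts of the 8 genes were read against all genes tested. In IKK2-CA against control, 1 of 8 passed, and 2.25% of all genes did; 3 of 8 had an unadjusted p under 0.05 in limma, against 15.7% of all genes. The groups did not overlap for 1 of 8, against 4.2% of all genes. In IKK2-CA against Pdx-1+/- islets, 0 of 8 passed by limma, where 0.0752% of all genes did, and 0 of 8 had an unadjusted p under 0.05, against 7.02% of all genes. No gene of the 8 was free of overlap there, against 2.43% of all genes. In Pdx-1+/- against control, 0 of 8 passed by limma, where 0.0953% of all genes did, and 2 of 8, Tspan8 and Prom1, had an unadjusted p under 0.05, against 4.71% of all genes. Those 2 were also the genes whose groups did not overlap, against 1.88% of all genes. The median difference of the 8 was 0.03 in IKK2-CA against control, -0.10 in IKK2-CA against Pdx-1+/- and 0.25 in Pdx-1+/- against control, beside medians of -0.012, -0.015 and -0.0049 over all genes. By role, the 4 surface proteins had a median of 0.42 and the 3 keratins one of -0.060 in IKK2-CA against control. The same medians were 0.51 and -0.12 in Pdx-1+/- against control.

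The 8 genes did not peak on the same arrays. Krt19 was highest on control array 1, Cftr on control array 2 and Krt7 on control array 3. Tspan8, Prom1 and Krt8 were highest on Pdx-1+/- arrays 2, 3 and 4. Muc1 was highest on IKK2-CA array 3, which was also the lowest array for Krt7, and Epcam on IKK2-CA array 4. Thus 8 genes had their highest value on 8 different arrays. The mean of the 8 genes was 8.21 ± 0.07 (SD, n = 5) in control, 8.39 ± 0.11 (SD, n = 4) in Pdx-1+/- and 8.29 ± 0.15 (SD, n = 5) in IKK2-CA islets.

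**Figure D3:**
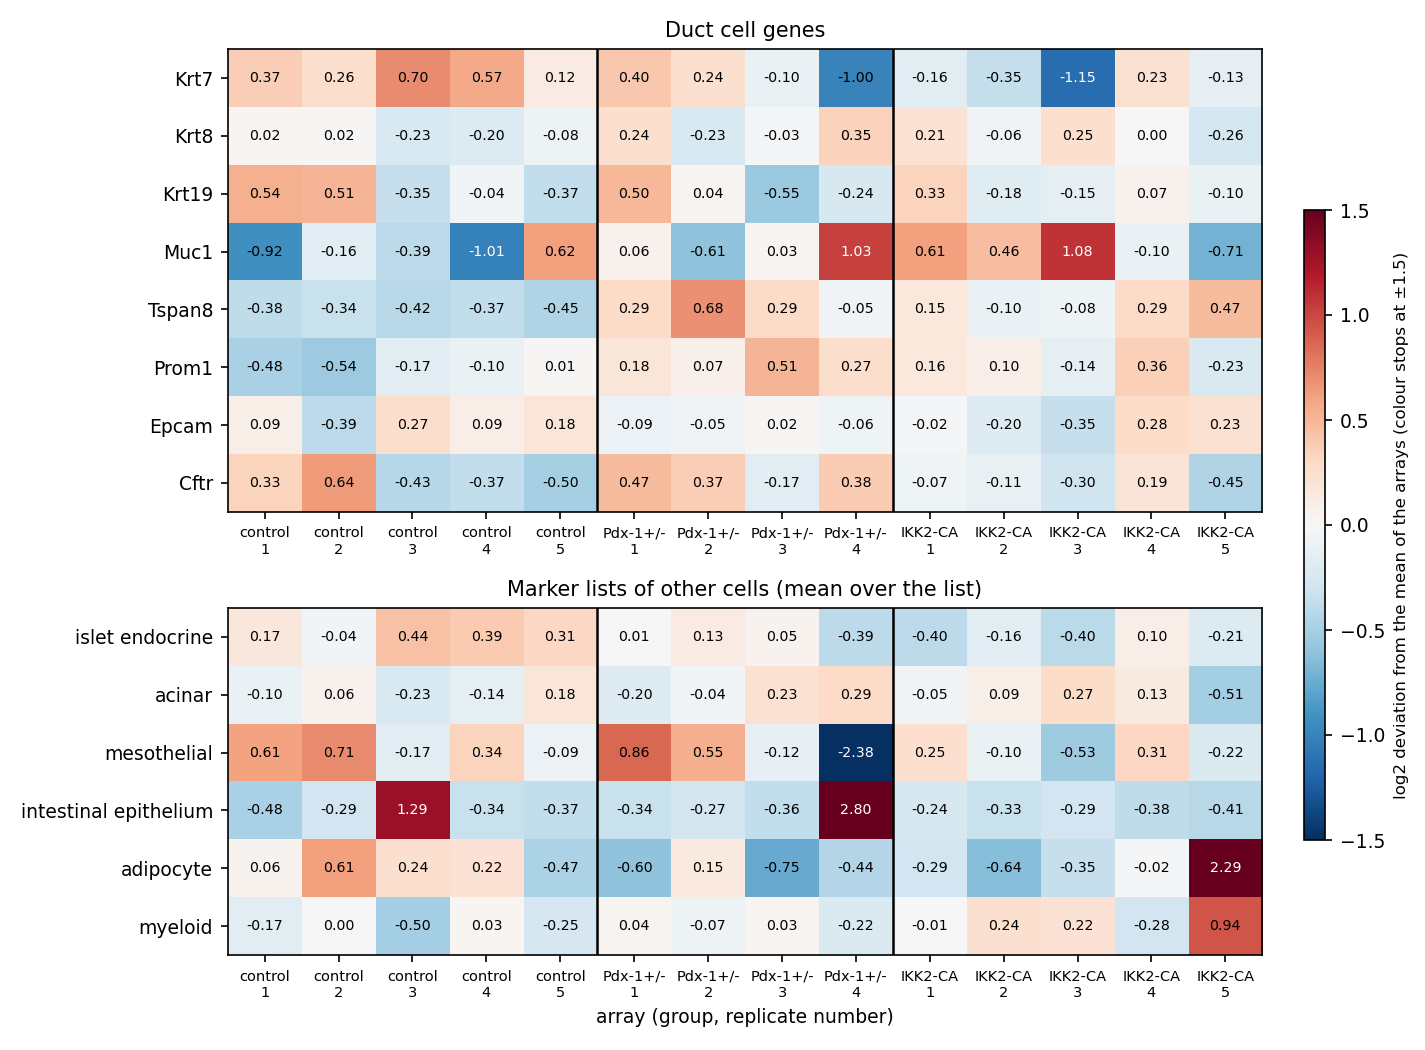
Deviation from the mean over the 14 arrays, in log2 units printed in each cell, with a column for each array in the order control, Pdx-1+/- and IKK2-CA; the upper panel has a row for each duct gene, the lower a row for the mean of each of 6 marker lists. No array is high or low for all 8 duct genes, and the strongest cells of the lower panel are intestinal epithelium (2.80) and mesothelial (-2.38) on Pdx-1+/- array 4 and adipocyte (2.29) on IKK2-CA array 5.

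Among the 28 pairs of these genes, 14 correlated positively and 14 negatively over the 14 arrays, with Pearson's r from -0.78 to 0.73. Krt7 and Muc1 ran opposite, with r = -0.78 (permutation p = 0.00072, adjusted over the 28 pairs 0.0202) and Spearman's rho = -0.71 (permutation p = 0.00577, adjusted 0.162). Without the 2 arrays farthest from the median of Krt7 the value of r was -0.56, and after the group means were removed it was -0.72. Krt8 and Muc1 ran together, with r = 0.73 (permutation p = 0.00348, adjusted 0.0487) and rho = 0.62 (permutation p = 0.0215, adjusted 0.164). Without the 2 arrays farthest from the median of Krt8 the value of r was 0.55, and within groups it was 0.70. Cftr and Krt19 had r = 0.68 (permutation p = 0.00956, adjusted 0.0892) and rho = 0.63 (permutation p = 0.0187, adjusted 0.164), and r was 0.49 without the 2 arrays farthest from the median of Cftr. The first 2 relations passed by Pearson's r and did not pass by rho after adjustment.

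The genes were also set against the markers of other cell types. Over 80 relations between the 8 genes and 10 marker lists, 1 passed after adjustment: Krt7 followed the mean of the islet endocrine genes, with r = 0.84 (permutation p = 9.0e-05, adjusted 0.0072) and rho = 0.82 (permutation p = 0.00068, adjusted 0.0544). Leaving out the 2 arrays farthest from the median of the endocrine list gave r = 0.85, and removing the group means gave r = 0.74. The endocrine list and Krt7 had the same order of group means, highest in control and lowest in IKK2-CA islets. The part of the endocrine list in the Krt7 differences was not tested.

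Muc1 and the acinar list had r = 0.70 (permutation p = 0.00535, adjusted 0.143) and rho = 0.71 (permutation p = 0.00615, adjusted 0.123). The value of r was 0.63 without the 2 arrays farthest from the median of the acinar list. Krt19 had r = 0.57 with the mesothelial list (permutation p = 0.0203, adjusted 0.232) and rho = 0.76 (permutation p = 0.00219, adjusted 0.0876), and r was 0.76 without the 2 arrays farthest from the median of that list. Krt19 is made by mesothelial cells as well as by ducts. None of these relations passed after adjustment.

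**Figure D4:**
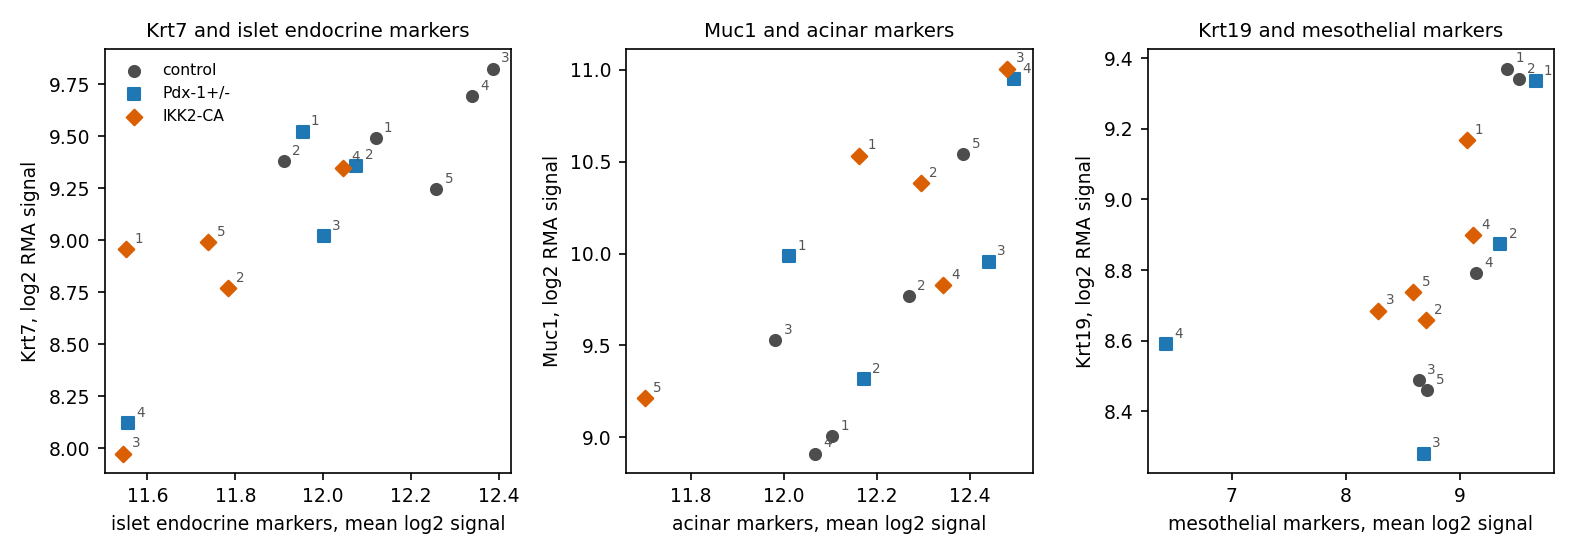
Signal of a duct gene (vertical axes) against the mean of a marker list (horizontal axes) on the 14 arrays, in log2 units, with a numbered point for each array, coloured by group. High Krt7 values lie at high islet endocrine means (r = 0.84); Muc1 is set against the acinar mean (r = 0.70) and Krt19 against the mesothelial mean (r = 0.57).

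The genes most like each of the 8 were taken as the 3 with the highest Pearson correlation over the 14 arrays among 19937 genes, as a description. Krt7 was most like Mbtps1, the protease that activates sterol-responsive factors (0.96), Iqce (0.96) and Lrp3 (0.95). Krt8 was most like Cyp2c50 (0.95), Arhgef10l (0.92) and Atf1 (0.91). Krt19 was most like Plcd1, a phospholipase C (0.96), Tmem98 (0.92) and Tprgl (0.90). These first neighbours of the 3 keratins included no gene in common and none of the other duct genes followed here.

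Muc1 was most like Itih4 (0.95), Reep5 (0.95) and Habp2 (0.94). Tspan8 was most like Ghrl, which encodes the hormone ghrelin (0.87), Serpina7 (0.85) and Clcn5, a chloride and proton exchanger (0.83). Prom1 was most like Ambp, a secreted precursor that was also among the other duct genes (0.85), Egfl8 (0.85) and Shank2 (0.82). After the group means were removed, the correlations of Tspan8 with Ghrl, Serpina7 and Clcn5 were 0.76, 0.62 and 0.47, and those of Prom1 with Ambp, Egfl8 and Shank2 were 0.68, 0.69 and 0.68. Epcam was most like Impa1, Pkp4 and Zbtb41 (0.86 each), and Cftr like Kcnd3, a potassium channel (0.88), Ceacam16 (0.87) and Cpt1a, the carnitine palmitoyltransferase of mitochondria (0.84).

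Beyond the 8, 50 of 54 other genes of duct biology had a row, in lists of transcription factors, transport, primary cilium, keratins and junctions, and other surface and secreted proteins. In IKK2-CA against control, 2 of 50 rose, Kcnn4 and Cd44, and 0 fell, beside 2.25% of all genes; 14 of 50 had an unadjusted p under 0.05 in limma, as did 15.7% of all genes. None of the 50 passed in the other comparisons, where 6 of 50 in IKK2-CA against Pdx-1+/- (7.02% of all genes) and 7 of 50 in Pdx-1+/- against control (4.71% of all genes) had an unadjusted p under 0.05 in limma. Over the alternative settings, 1 to 3 of the 50 rose and 0 to 2 fell in IKK2-CA against control, the latter being Ift88 and Dsp. The median difference of the 50 was 0.11 in IKK2-CA against control, -0.035 in IKK2-CA against Pdx-1+/- and 0.086 in Pdx-1+/- against control.

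Kcnn4, a calcium-activated potassium channel that helps drive fluid secretion and is also used by lymphocytes and macrophages, was the transport gene that rose. It read 5.80, 6.28, 6.22, 6.22 and 6.52 on control arrays 1 to 5. On Pdx-1+/- arrays 1 to 4 it read 6.75, 6.42, 6.67 and 6.45, and on IKK2-CA arrays 1 to 5 it read 6.84, 6.72, 7.13, 6.90 and 7.57. All IKK2-CA arrays lay above all control arrays, with IKK2-CA array 5 the highest. Kcnn4 rose by 0.83 log2 units (SE 0.16, 1.77-fold, limma adjusted p = 0.0161). Without IKK2-CA array 5 it rose by 0.69 (limma adjusted p = 0.0185), and without the 3 arrays with strong genes of other tissues by 0.70 (limma adjusted p = 0.0437). Against Pdx-1+/- islets its difference was 0.46 (SE 0.17, limma adjusted p = 0.542), and 0.29 with Pdx-1+/- array 4 and also IKK2-CA array 5 left out. The other 8 transport genes measured did not pass, and the list's median was 0.22. Of these, Sctr, the receptor for secretin and named here after its values were seen, lay nearest to the threshold, with a difference of 0.40 (SE 0.10, limma adjusted p = 0.0534) and no overlap between the groups. It passed in 6 of 25 alternative settings, among them median centring, quantile normalization and the fit without Pdx-1+/- array 4. With IKK2-CA array 5 left out as well, Sctr did not pass. In Pdx-1+/- against control the Sctr groups did not overlap either, with a difference of 0.25 (SE 0.11, limma adjusted p = 0.999). Between IKK2-CA and Pdx-1+/- islets Sctr differed by 0.14 (SE 0.11, limma adjusted p = 0.891).

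Cd44, a hyaluronan receptor of duct cells and of leukocytes, was the surface protein that rose. It read 7.95, 7.59, 8.09, 8.25 and 8.35 on control arrays 1 to 5. On Pdx-1+/- arrays 1 to 4 it read 7.84, 8.36, 8.28 and 7.64, and on IKK2-CA arrays 1 to 5 it read 8.56, 8.84, 9.01, 8.85 and 10.12. All IKK2-CA arrays lay above every array of both other groups, and IKK2-CA array 5 stood highest. Cd44 rose by 1.03 log2 units against control (SE 0.25, 2.05-fold, limma adjusted p = 0.0463). Without IKK2-CA array 5 it rose by 0.77 (limma adjusted p = 0.0420). In the fit of only the compared groups Cd44 did not pass (limma adjusted p = 0.0756), nor when every transcript cluster was tested (0.0802) or without the 3 arrays with strong genes of other tissues (0.78 log2 units, 0.0549). It also did not pass without any single control array or without IKK2-CA array 2 or 3 or Pdx-1+/- array 1, 2 or 3 (limma adjusted p up to 0.126). Against Pdx-1+/- islets its difference was 1.05 (SE 0.27, limma adjusted p = 0.246), and 0.66 with Pdx-1+/- array 4 and also IKK2-CA array 5 left out.

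Leukocyte genes also had their highest means in IKK2-CA islets. The mean of 11 myeloid genes was 8.57 ± 0.22 (SD, n = 5) in control, 8.70 ± 0.12 (SD, n = 4) in Pdx-1+/- and 8.97 ± 0.46 (SD, n = 5) in IKK2-CA islets, and was highest on IKK2-CA array 5 at 9.70. The mean of 5 T-cell genes was 5.16 ± 0.10 (SD, n = 5), 5.20 ± 0.19 (SD, n = 4) and 5.76 ± 0.61 (SD, n = 5) in the same order. The groups overlapped in both lists. IKK2-CA array 4 read 8.47 for the myeloid and 5.06 for the T-cell genes, within the control ranges. Endothelial and stellate lists also had their highest means in IKK2-CA islets, at 8.70 and 9.21, with overlapping ranges. The part of these cells in the Kcnn4 and Cd44 values was not tested.

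The remaining lists held no gene past the test in the fit of all arrays. Their signs are read beside 46.4% of all genes with a positive difference in IKK2-CA against control. Of 7 duct transcription factors, 6 had a positive difference in IKK2-CA against control, the largest being 0.32 for Onecut1 (SE 0.16, limma adjusted p = 0.346), a factor of pancreatic and duct development. In Pdx-1+/- against control 4 of the 7 were positive (48.2% of all genes), and the Onecut1 difference was larger, 0.44 (SE 0.17, limma adjusted p = 0.931). Onecut1 was highest on Pdx-1+/- array 4, at 7.24 against 6.20 to 7.01 elsewhere. Between IKK2-CA and Pdx-1+/- islets it differed by -0.12 (SE 0.17, limma adjusted p = 0.970). Hes1, a target of Notch, had a difference of 0.31 in IKK2-CA against control (SE 0.15, limma adjusted p = 0.357), and 0.14 without the 3 arrays with strong genes of other tissues. All 6 genes of the primary cilium, a sensory antenna of cells, had a negative difference in IKK2-CA against control, with a median of -0.18. All 6 were also negative in IKK2-CA against Pdx-1+/- islets, with a median of -0.25, where 45.0% of all genes were positive. In Pdx-1+/- against control, 3 of the 6 were positive and 3 negative. The differences of Pkhd1 (-0.02, SE 0.18) and Bicc1 (-0.07, SE 0.19) in IKK2-CA against control were small beside their SE. IKK2-CA array 3 was the lowest of the 14 arrays for Pkhd1 (5.96), Pkd1 (7.59) and Ift88 (6.73). It was also the lowest IKK2-CA array for Bicc1 (8.15), and the negative signs of Pkhd1 and Bicc1 against control rest on it. Ift88, which carries cargo along the cilium, differed by -0.62 in IKK2-CA against control (SE 0.17, limma adjusted p = 0.0833). Ift88 passed with array weights (limma adjusted p = 0.0157), without Pdx-1+/- array 4 (0.0253) and without IKK2-CA array 4 (0.0245). Pkd1, which encodes polycystin 1, differed by -0.31 (SE 0.13, limma adjusted p = 0.259), and by -0.17 without IKK2-CA array 3. Of 11 keratin and junction genes, 6 were positive, with a median of 0.024. Dsp, the desmosomal plaque protein desmoplakin, differed by -0.47 (SE 0.16, limma adjusted p = 0.150). It passed with array weights (limma adjusted p = 0.0383) and without IKK2-CA array 4 (0.0432), and differed by -0.30 without the 3 arrays with strong genes of other tissues. Perp, another desmosomal protein, differed by 0.37 (SE 0.25, limma adjusted p = 0.540), and by 0.18 without IKK2-CA array 3. Of 17 other surface and secreted proteins, 14 were positive, with a median of 0.30.

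**Figure D5:**
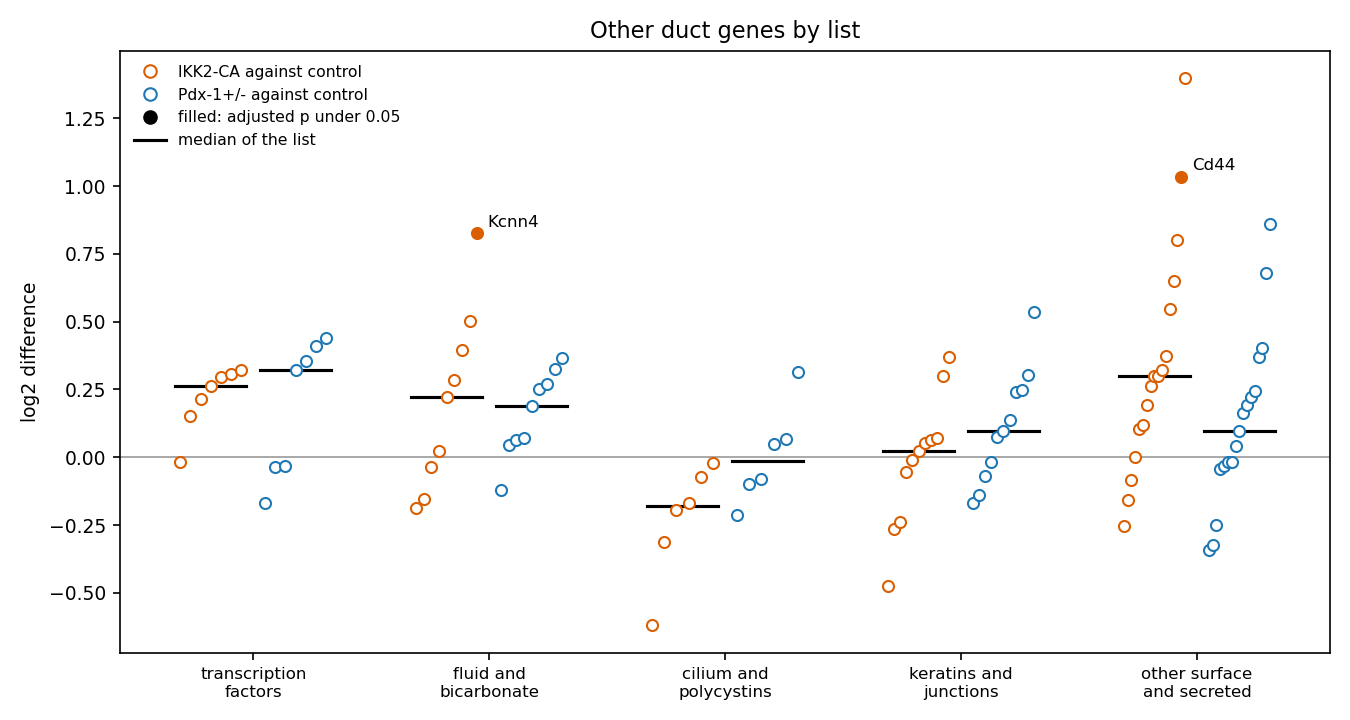
Log2 difference (vertical axis) of the 50 other duct genes by list (horizontal axis), with a point for each gene, in IKK2-CA islets (orange) and in Pdx-1+/- islets (blue), each against control; filled points passed the adjusted threshold, and bars are list medians. Kcnn4 (0.83) and Cd44 (1.03) are the filled points. All 6 cilium genes lie below 0 in IKK2-CA against control, Pkhd1 (-0.02) and Bicc1 (-0.07) only narrowly.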

How the data were processed

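Total RNA of 14 islet samples was hybridised, 1 array each. The values deposited by the authors are log2 signals per transcript cluster, summarised by the robust multichip average (RMA), per the labels' design text, in Affymetrix Expression Console, per the submitters' processing notes, whose version the sources used here do not give. The log2 base was read from the values, whose array medians lay between 6.45 and 6.55. They compare arrays for a gene, not genes with each other. Of 35556 clusters, 21789 with 1 gene symbol in the array's gene table were kept, and 1621 with several symbols and 12146 not listed were left out. For 999 genes with several clusters the one with the highest mean was used, which left 19938 genes. The number of arrays limits the precision.

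A single linear model with a mean per group and no covariates was fitted to the 14 arrays by limma 3.58.1 (functions lmFit and eBayes; R 4.3.3; 11 residual and 3.46 prior degrees of freedom), with Benjamini-Hochberg adjustment over all genes. The script was tested on simulated data. SE and 95% intervals are those of the fit, and ± gives the SD over arrays. Correlations over arrays were tested with 100000 permutations. Alternatives were median centring, quantile normalization, trend and robust eBayes, only the 2 groups compared, no dim genes (the lowest 30%), every cluster, cluster means, weighted arrays, a block for the replicate number, an exact permutation test and leaving out arrays.

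The genes named are the 9 duct genes; of each other duct list the members that passed, or else the 2 with the largest difference in IKK2-CA against control; the 3 genes most like each member; and the first of the marker lists. The 9 genes and all lists were chosen with earlier results of these data known. Replicate numbers recur between groups, but same-number arrays did not deviate together, so no pairing was used. Promoter windows come from RefSeq (GRCm38.p6), and no coordinates were taken for the clusters, whose build the sources used here do not give.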

Additional observations from a re-analysis of the deposited data

Results flagged for a closer look

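Single arrays stood far from the rest of their group, by Dixon's test at the 5% level, in 4 of the 48 groups of 4 or 5 arrays examined, where chance flags about 1 in 20. Epcam read 7.83 on control array 2, below the other control arrays, the nearest of which read 8.31. Cftr read 5.07 on Pdx-1+/- array 3, where the nearest other array of the group read 5.61. Ift88 read 6.88 on Pdx-1+/- array 4, the array with strong intestinal genes, and 7.63 on the nearest other array. Pkd1 read 7.59 on IKK2-CA array 3, which was also the lowest array for Krt7, and 8.23 on the nearest other array. Their sources were not tested.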

How the results depend on the processing

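Of 34 gene differences, 19 kept their direction and their side of the threshold in every setting with an adjusted p. The exact permutation test, which is not adjusted over genes, gave p under 0.05 for 9 differences that did not pass in limma and left the other 25 on their side of 0.05. In IKK2-CA against control, the count of duct genes that rose, 1, became 0 when every cluster was tested, with the replicate block and without the 3 arrays with strong genes of other tissues; it was 0 to 1 over single arrays left out. The count that fell, 0, became 1 with array weights. In Pdx-1+/- against control, the count that rose, 0, became 1 with median centring, quantile normalization, array weights and without the 2 or the 3 arrays, and was 0 to 1 over single arrays left out; Tspan8 was that gene. With the replicate number as a block, the Tspan8 adjusted p by limma was 0.114 in IKK2-CA against control and 0.35 in Pdx-1+/- against control. Same-number arrays correlated from -0.391 to 0.356 after group means were removed, with 2 of 13 pairs over 0.1, and 2 of 14 arrays matched best with their own number.

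Small differences changed sign without being called in any setting. With array weights, Krt19 read 0.048 and Cftr 0.12 in IKK2-CA against control, Krt8 0.019 and Epcam -0.037 in IKK2-CA against Pdx-1+/-, and Krt19 0.047 in Pdx-1+/- against control. In IKK2-CA against Pdx-1+/-, Krt8 read 0.11 and Epcam -0.033 without the 2 or the 3 arrays, and Epcam -0.013 with the block. Leaving out single arrays moved the differences from -0.17 to 0.060 for Krt19, -0.17 to 0.025 for Epcam and -0.19 to 0.097 for Cftr in IKK2-CA against control. In IKK2-CA against Pdx-1+/- they moved from -0.49 to 0.011 for Krt7, -0.16 to 0.036 for Krt8, -0.10 to 0.25 for Krt19, -0.10 to 0.44 for Muc1 and -0.038 to 0.12 for Epcam, and in Pdx-1+/- against control from -0.31 to 0.043 for Krt19. The cause was not tested.

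The number of genes called over the whole table moved from 448 to between 186 and 1431 in IKK2-CA against control (120 to 980 over single arrays left out). It moved from 15 to between 1 and 52 in IKK2-CA against Pdx-1+/- (2 to 66) and from 19 to between 9 and 73 in Pdx-1+/- against control (9 to 48). Cftr was not tested without dim genes, since it was among the lowest 30%.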

Other observations

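Several other duct genes, picked here after their values were seen, had their extreme value on an array with strong genes of another tissue. On Pdx-1+/- array 4, Krt20, an intestinal keratin, read 8.17 against 4.61 to 6.47 on the other 13 arrays, and Pigr, the receptor that carries antibodies across epithelia, read 8.88 against 5.64 to 7.27. On the same array Anxa3, a membrane-binding annexin, read 7.59 against 8.12 to 9.42 elsewhere, and S100a6, a calcium-binding protein, read 7.37 against 8.18 to 9.38. The mesothelial marker Msln read 6.75 there against 8.44 to 10.28, and Upk3b 8.25 against 10.17 to 11.63. On IKK2-CA array 5, Lcn2, the secreted lipocalin of inflamed epithelia and neutrophils, read 10.56 against 6.49 to 8.37 elsewhere, and Mmp7, a matrix metalloproteinase, read 7.39 against 4.95 to 5.84. Lcn2 was also higher on the other IKK2-CA arrays, the lowest at 7.87, than on any control array, the highest at 7.52. Its difference from control was 1.40 (SE 0.46, limma adjusted p = 0.131) and did not pass. The Pdx-1+/- arrays, up to 7.95, overlapped with both groups.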
